A study of Mus musculus with 6 samples.

Results

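The genes described here encode the killing machinery of cytotoxic lymphocytes: the granzymes A, B and K (Gzma, Gzmb and Gzmk), the pore-forming protein perforin (Prf1) and the granule membrane protein Nkg7. They were taken by exact symbol from a table of raw counts per gene, as 5 of its 23505 gene rows, and all 5 were among the 10509 genes with enough counts to be tested. RNA came from liver CD4+ T cells of wild type mice that had been given ConA, the jack bean lectin concanavalin A, which stimulates T cells and causes an immune hepatitis. The ConA+SIM group received simvastatin, a statin that blocks cholesterol synthesis, at 30 mg/kg by gavage, and the ConA group received phosphate-buffered saline. Gavage was given daily for 5 days ahead of ConA in both groups, once more 1 h ahead of it and again 24 h after it. The sort kept CD3+ CD4+ cells without CD8 or the NK cell antigen NK1.1. Each group held 3 samples with 1 library each, every library had been exposed to ConA, and an uninjected group was not analysed here. No source used here gives the age, sex or strain of the mice or the hour of cell collection.

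Granzymes are serine proteases that cytotoxic cells store in acidic granules on the proteoglycan serglycin. When the cell meets its target, the granules fuse with the membrane, perforin opens pores in the target cell and the granzymes enter through them. Granzyme B cleaves after aspartate and activates caspases, whereas granzymes A and K cleave after basic residues. Nkg7 sits in the granule membrane and promotes granule release. CD8+ T cells and NK cells are the usual producers, and activated CD4+ T cells can acquire the same genes. Factors of the RUNX, T-box, AP-1 and NFAT families are known to act on granzyme and perforin genes.

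Gzma (chromosome 13, 113093824 to 113100981) and Gzmk (chromosome 13, 113171630 to 113180965) lie 70.6 kb apart on the minus strand of GRCm38.p6. Gzmb (chromosome 14, 56258836 to 56262334, minus strand) belongs to a cluster that holds 7 of the 10 mouse granzyme genes looked up. Prf1 is on chromosome 10 (61297751 to 61304684) and Nkg7 on chromosome 7 (43437138 to 43438246), both on the plus strand. The Gzma gene lies inside the span of Cdc20b, and no source used here says how reads in overlapping genes were counted. Cdc20b was at 0 counts in 5 of the 6 libraries. It reached 24.9 CPM in ConA+SIM replicate 2, where CPM is the count scaled to a common library total (TMM factors).

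The 250 bases before the transcription start of Gzma, Gzmb and Nkg7, the genes detected in all 6 libraries, are shown 5′ to 3′ from RefSeq (GRCm38.p6), since their regulators are among the genes described further on. Capitals mark, on either strand, the RUNX core AACCAC (reverse GTGGTT), the AP-1 motif TGANTCA, the NFAT core GGAAA (reverse TTTCC) and the T-box core AGGTGT (reverse ACACCT).
Gzma (chr13:113100982-113101231, minus strand): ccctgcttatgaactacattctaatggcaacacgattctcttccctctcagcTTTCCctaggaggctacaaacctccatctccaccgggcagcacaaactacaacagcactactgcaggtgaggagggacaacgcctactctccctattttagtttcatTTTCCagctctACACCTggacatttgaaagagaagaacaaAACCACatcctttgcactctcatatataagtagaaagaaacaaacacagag
Gzmb (chr14:56262335-56262584, minus strand): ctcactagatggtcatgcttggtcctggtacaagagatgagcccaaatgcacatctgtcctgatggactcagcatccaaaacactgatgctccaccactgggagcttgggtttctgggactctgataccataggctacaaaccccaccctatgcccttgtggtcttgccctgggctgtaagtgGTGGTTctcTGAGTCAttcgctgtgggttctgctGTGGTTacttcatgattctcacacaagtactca
Nkg7 (chr7:43436888-43437137, plus strand): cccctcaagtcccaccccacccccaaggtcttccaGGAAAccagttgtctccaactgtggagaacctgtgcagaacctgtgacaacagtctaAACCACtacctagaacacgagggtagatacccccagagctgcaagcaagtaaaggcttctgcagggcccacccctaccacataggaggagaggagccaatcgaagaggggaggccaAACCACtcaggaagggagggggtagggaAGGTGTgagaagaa
The RUNX core was found at 1 place in the Gzma window and at 2 places each in the Gzmb and Nkg7 windows, whereas 10.8% of 32851 promoter windows of the same length held it. The AP-1 motif was found in the Gzmb window alone among these 3 and in 6.75% of all windows. The T-box core was found at 1 place each in the Gzma and Nkg7 windows, against 11.8% of all windows. The NFAT core was found at 2 places in the Gzma window and at 1 place in the Nkg7 window, and 55.6% of all windows held it. The windows of Gzmk and Prf1, which are not printed, held no RUNX, AP-1 or NFAT match, and held the T-box core at 2 places and 1 place. These are matches of letters and not measured binding.

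The libraries held between 17549429 counts (ConA+SIM replicate 2) and 25031862 counts (ConA replicate 3). ConA+SIM replicate 2 stood apart: 18.4% of the tested genes had no count in it, whereas this share was 2.76% to 9.98% in the other libraries. A count of 0 allows a level of up to 3 counts (95% confidence, counting error only), which is 0.118 to 0.175 CPM depending on the library. Cd4 was at 562, 441 and 469 CPM in ConA+SIM and at 545, 485 and 766 CPM in ConA, and Cd3e was present in every library, as the sort label asks. Ncr1, a defining receptor of NK cells, was at 0 in all 6 libraries. Klrb1c, which encodes NK1.1, was nevertheless at 43.5, 43.5 and 39.0 CPM in ConA+SIM and at 6.69, 17.6 and 20 CPM in ConA (adjusted p = 0.672 by edgeR). Cd8b1, a CD8 chain gene, was at 21.8, 54.1 and 42.2 CPM in ConA+SIM against 17.2, 33.1 and 4.64 CPM in ConA. The other CD8 chain gene, Cd8a, was at 4.48, 0 and 10.3 CPM in ConA+SIM against 15.9, 0 and 0.0787 CPM in ConA. The groups overlapped in both CD8 genes.

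The question was whether the granule genes of liver CD4+ T cells differ when ConA hepatitis is accompanied by simvastatin. None of the 5 genes passed the test over all genes (edgeR quasi-likelihood test, Benjamini-Hochberg adjusted p under 0.05), where 0.542% of tested genes passed, all of them higher in ConA+SIM. Gzma had the largest ratio of the 5, with a mean 2.78 times as high in ConA+SIM. Nkg7 was 1.55 times as high, Gzmb 1.02 times, Gzmk 1.38 times and Prf1 1.13 times, but the libraries of each group overlapped in Gzmb, Gzmk and Prf1. The 3 ConA+SIM libraries lay above the 3 ConA libraries in Gzma and Nkg7, 2 of the 5 genes, and 9.18% of all tested genes were separated in this direction. In bulk samples a difference in the share of granule-bearing cells and one in RNA per cell cannot be told apart.

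**Figure D1:**
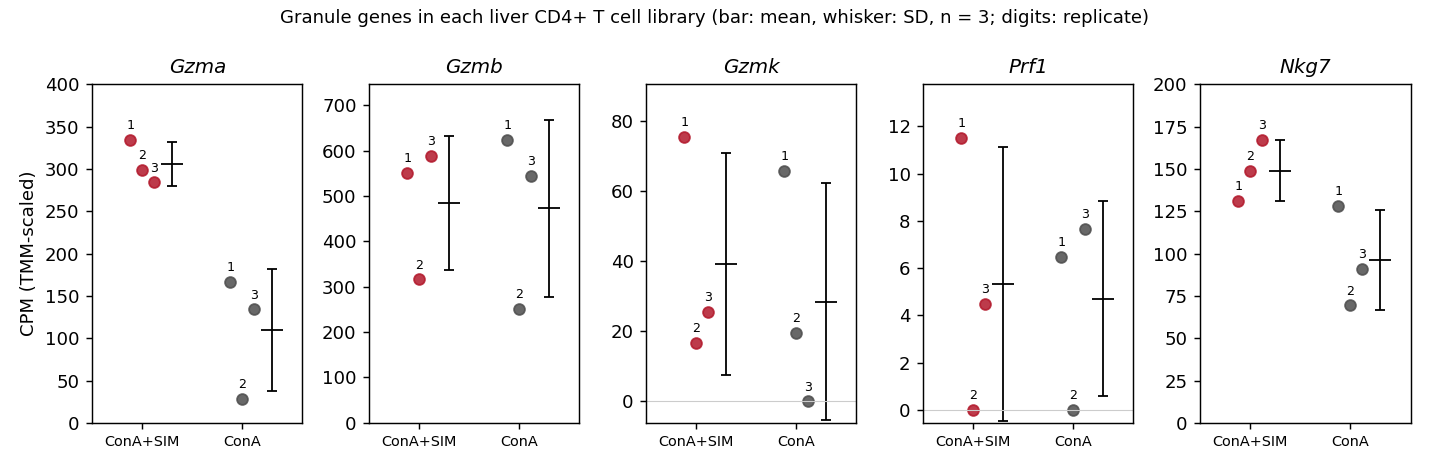
TMM-scaled CPM (y axis) of Gzma, Gzmb, Gzmk, Prf1 and Nkg7 in each ConA+SIM (red) and ConA (grey) library, with the replicate number above each point and the group mean and SD (n = 3) beside the points. Gzma spans 284 to 334 CPM in ConA+SIM and 28.6 to 167 CPM in ConA, and the groups overlap in Gzmb, Gzmk and Prf1.

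Gzma, a tryptase of the granule, was at 334, 299 and 284 CPM in ConA+SIM replicates 1 to 3, from 6260, 5124 and 5322 counts. In ConA replicates 1 to 3 it was at 167, 28.6 and 134 CPM, from 3875, 567 and 3402 counts. The ConA+SIM libraries were close to each other and all above the ConA libraries, among which replicate 2 was low. The means were 306 ± 25.6 CPM in ConA+SIM and 110 ± 72.4 CPM in ConA (SD, n = 3 each). The log2 fold change was 1.48 ± 0.54 (SE), with a 95% interval from 0.26 to 2.69, an unadjusted p = 0.0225 and an adjusted p = 0.42 by edgeR; it ranked 563 by p among the tested genes, 5.31% of which were higher with an unadjusted p under 0.05. DESeq2 called Gzma (log2 fold change 1.47, adjusted p = 0.0116) but not Gzmb or Nkg7, gave Gzmk and Prf1 no adjusted p, and called 7.42% of the 4800 genes to which it gave an adjusted p as higher in ConA+SIM. Without ConA replicate 2 the log2 fold change was 1.01 (adjusted p = 0.336 by edgeR), and without ConA+SIM replicate 2, the library with the most genes at 0, it was 1.49. It was 1.09 once the dependence of each library on transcript length had been removed by offsets and 0.70 with offsets for length and GC content, and the Gzma transcript is 878 nt long.

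The spread of Gzma among libraries was narrow in ConA+SIM and wide in ConA, which was not tested. Its coefficient of variation over the 3 libraries was 8.36% in ConA+SIM, and 3.83% of the 8669 tested genes with a mean of at least 10 CPM had a lower one there. In ConA it was 65.9%, and 76.4% of those genes had a lower one. The lowest and highest Gzma levels differed 1.17 times in ConA+SIM and 5.86 times in ConA. The ConA spread came from replicate 2: without it the coefficient of variation was 15.7% and the range 1.25 times.

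Gzmb, the aspartate-cleaving granzyme, was the member with the most counts, from 4996 to 14438 per library. It was at 550, 316 and 588 CPM in ConA+SIM replicates 1 to 3 and at 623, 252 and 544 CPM in ConA replicates 1 to 3. In both groups replicate 2 was the low library, and the groups overlapped over nearly their whole range. The means were 485 ± 147 CPM in ConA+SIM and 473 ± 196 CPM in ConA (SD, n = 3 each). The log2 fold change was 0.03 ± 0.36 (SE, adjusted p = 0.999 by edgeR), with a 95% interval from -0.77 to 0.84. The interval leaves room for a difference of that size in either direction. Without ConA+SIM replicate 2 the estimate was 0.27. Among the alternatives the sign turned, to -0.24 with length offsets, -0.48 with length and GC offsets, and -0.29 without ConA replicate 2.

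Gzmk, the other tryptase, was detected in 5 of 6 libraries. It was at 75.5, 16.7 and 25.6 CPM in ConA+SIM and at 65.7, 19.6 and 0 CPM in ConA. Replicate 1 was high in both groups, and the 0 counts of ConA replicate 3 stood beside 3402 counts of its neighbour Gzma in the same library. The log2 fold change was 0.47 ± 1.64 (SE, adjusted p = 0.999 by edgeR), with a 95% interval from -3.25 to 4.18. Over the alternatives it ran from -0.42 without ConA+SIM replicate 1 to 5.17 with limma-voom and sample quality weights, and was 0.83 without ConA+SIM replicate 2, so these libraries gave Gzmk no stable direction.

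Prf1, the pore former that lets granzymes into the target, was the lowest of the 5 and at 0 in 2 libraries. It had 216, 0 and 84 counts in ConA+SIM and 150, 0 and 195 counts in ConA, which is 11.5, 0 and 4.49 CPM in ConA+SIM and 6.48, 0 and 7.67 CPM in ConA. Replicate 2 had no Prf1 count in either group. By counting error only this allows up to 0.175 CPM in the ConA+SIM library and up to 0.151 CPM in the ConA library. Libraries of a group differed by more than counting error, so the true limits are wider. The log2 fold change was 0.18 ± 2.90 (SE, adjusted p = 0.999 by edgeR), with a 95% interval from -6.35 to 6.71, the widest of the 5 genes. Without ConA+SIM replicate 1 it was -1.07, and without ConA+SIM replicate 2 it was 0.76.

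Nkg7, the granule membrane gene, was at 131, 149 and 167 CPM in ConA+SIM and at 128, 69.4 and 91.1 CPM in ConA. The groups did not overlap, but the lowest ConA+SIM library and the highest ConA library were close. The means were 149 ± 18.2 CPM in ConA+SIM and 96.3 ± 29.8 CPM in ConA (SD, n = 3 each). The log2 fold change was 0.63 ± 0.32 (SE, adjusted p = 0.672 by edgeR), with a 95% interval from -0.10 to 1.36. It was 0.63 without ConA+SIM replicate 2, 0.19 with length offsets and 0.30 with length and GC offsets, and the Nkg7 transcript is 881 nt long.

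Levels of different genes were compared per kb of transcript. In ConA+SIM, Gzma averaged 348 ± 29.1 CPM per kb and Gzmb 337 ± 103, which did not differ beyond their spread, followed by Nkg7 at 169 ± 20.7, Gzmk at 38.2 ± 30.8 and Prf1 at 2.16 ± 2.35 (SD, n = 3). In ConA, Gzmb averaged 329 ± 136 CPM per kb, followed by Gzma at 125 ± 82.5 and Nkg7 at 109 ± 33.8, which overlapped, Gzmk at 27.7 ± 32.8 and Prf1 at 1.91 ± 1.67 (SD, n = 3). Averaged over the 6 libraries, Gzmb exceeded 98.1% of tested genes of known length, Gzma 97.1%, Nkg7 95.1%, Gzmk 77.0% and Prf1 10.4%. Gzma and Gzmb were thus among the most abundant RNAs per length, and Prf1 among the least abundant.

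**Figure D2:**
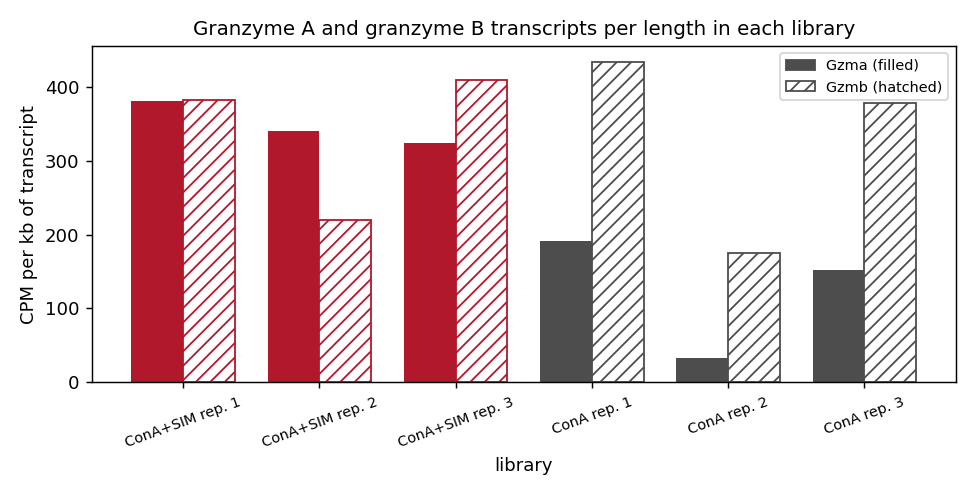
CPM per kb of transcript (y axis) of Gzma (filled bars) and Gzmb (hatched bars) in each library, ConA+SIM in red and ConA in grey. Gzma is at 381, 340 and 324 CPM per kb in ConA+SIM and at 191, 32.5 and 152 in ConA, where the Gzmb bar is the taller one in each library.

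The balance between granzyme A and granzyme B RNA was looked at after the values had been seen, and is given as a description. A two-sided exact permutation test returned p = 0.10, the smallest possible with 3 libraries per group, so no conclusion is drawn from it. The log2 of Gzma over Gzmb, both per kb, was -0.01, 0.63 and -0.34 in ConA+SIM and -1.19, -2.43 and -1.31 in ConA. Gzmb exceeded Gzma in all ConA libraries by this measure, whereas in ConA+SIM the pair was near parity, with Gzma above Gzmb in replicate 2 alone. The mean was 0.09 ± 0.49 in ConA+SIM and -1.64 ± 0.68 in ConA (SD, n = 3 each), a difference of 1.74. As a share of the summed CPM per kb of the 5 genes, Gzma made up 38.4%, 45.6% and 34.1% in ConA+SIM and 22.8%, 10.6% and 23.9% in ConA. The summed CPM of the 5 genes was 1103, 780 and 1069 in ConA+SIM and 991, 369 and 777 in ConA, and these ranges overlapped.

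**Figure D3:**
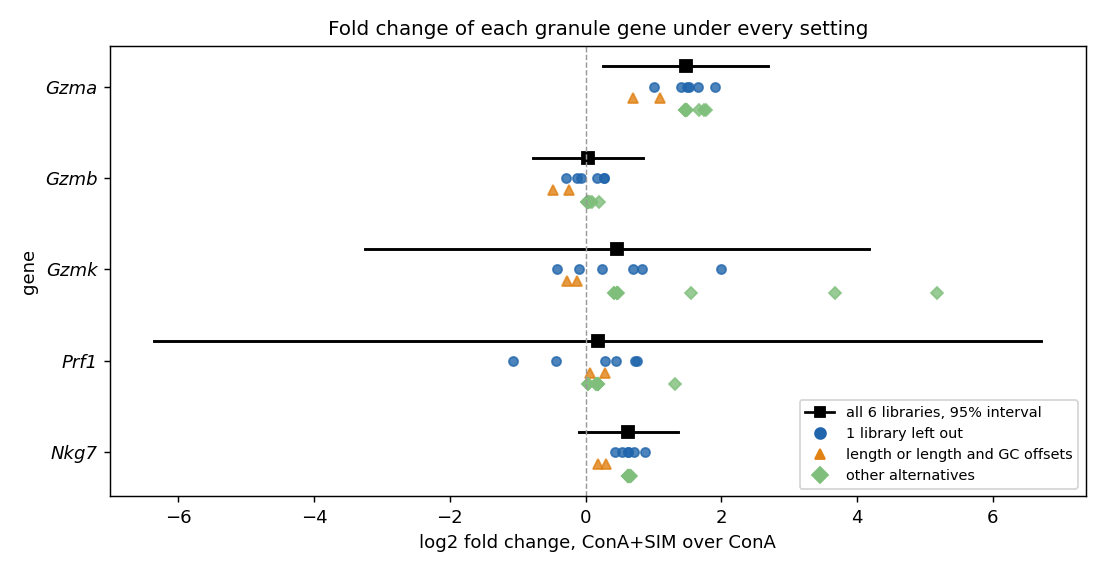
Log2 fold change of ConA+SIM over ConA (x axis) for each granule gene (rows), from all 6 libraries with its 95% interval (black), with 1 library left out (blue), with transcript length or length and GC offsets (orange) and under the other alternatives (green). Gzma lies between 0.70 and 1.90 and Nkg7 between 0.19 and 0.88 throughout, whereas Gzmb, Gzmk and Prf1 fall on both sides of 0.

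Markers of other granule-bearing cells were read beside these values. Of 20 NK cell and ILC1 genes 13 were tested, of which 10 had a positive and 3 a negative log2 fold change. In edgeR 0 passed, and Ncr1 and Klra8 were at 0 in all libraries. All ConA+SIM libraries lay above all ConA libraries in 4 of the 13 and below in 1, against 9.18% and 8.57% of all tested genes. The 20 genes summed to 771 to 943 CPM in ConA+SIM and 390 to 655 CPM in ConA, without overlap. The sum includes Klrd1 and Klrc1, both separated upward. The 3 genes with a negative log2 fold change and the 1 separated downward are not given by library. Tyrobp overlapped, at 217, 28.5 and 286 CPM in ConA+SIM and 183, 117 and 110 CPM in ConA. Klrd1, a receptor chain of NK cells and of activated T cells, was at 178, 173 and 139 CPM in ConA+SIM and at 15.3, 68.6 and 18.5 CPM in ConA (adjusted p = 0.225 by edgeR). Its partner chain Klrc1 was at 148, 225 and 124 CPM in ConA+SIM and at 31.0, 97.3 and 90.0 CPM in ConA (adjusted p = 0.473 by edgeR). By library the NK marker sum was 861, 771 and 943 CPM in ConA+SIM and 494, 655 and 390 CPM in ConA. Gzma in the same order was at 334, 299 and 284 CPM in ConA+SIM and at 167, 28.6 and 134 CPM in ConA. The part of these cells in the Gzma and Nkg7 differences was not tested. The 2 CD8 genes summed to 26.3 to 54.1 CPM in ConA+SIM and 4.72 to 33.1 CPM in ConA. Of these 2, 1 had a positive log2 fold change (Cd8b1) and 1 a negative one (Cd8a). The 8 mast cell and basophil genes summed to 22 to 98.4 CPM in ConA+SIM and 16.8 to 87.1 CPM in ConA, with Mcpt4, Cma1 and Tpsb2 at 0.

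Marker genes of other liver and blood cells were counted too. Kupffer cell and macrophage genes summed to 601 to 1677 CPM in ConA+SIM and 1149 to 2495 CPM in ConA, B cell genes to 458 to 859 CPM in ConA+SIM and 114 to 1157 CPM in ConA, and endothelial genes to 305 to 592 CPM in ConA+SIM and 186 to 1672 CPM in ConA. Hepatocyte genes summed to 154 to 245 CPM in ConA+SIM and 81.4 to 205 CPM in ConA, and plasmacytoid dendritic cell genes to 442 to 589 CPM in ConA+SIM and 356 to 529 CPM in ConA. These 5 sums overlapped between the groups. By gene, 8 of 10 tested macrophage genes and 8 of 8 endothelial genes had a negative log2 fold change. It was positive in 4 of 5 B cell, 6 of 7 hepatocyte and 4 of 5 plasmacytoid dendritic cell genes tested, and in 5047 of 10509 tested genes. Neutrophil genes, at 583 to 940 CPM in ConA+SIM and 276 to 455 CPM in ConA, and erythroid genes, at 229 to 343 CPM in ConA+SIM and 43.8 to 115 CPM in ConA, did not overlap. Of the tested neutrophil genes 3 had a positive and 2 a negative log2 fold change, and Ly6g was at 0 in all libraries. All 5 erythroid genes had a positive one. The haemoglobin gene Hbb-bs passed the test, at 171 ± 55.9 CPM in ConA+SIM and 40.8 ± 7.25 CPM in ConA (adjusted p = 0.0485 by edgeR). CD4 T cell identity genes, of which 7 of 10 were analysed, summed to 3167 to 3298 CPM in ConA+SIM and 2038 to 3104 CPM in ConA, also without overlap. Of these 7, 4 had a positive and 3 a negative log2 fold change. Cd4 (-0.29) and Cd3e (-0.34) were among the negative ones and Cd3g (0.64) among the positive ones. Of 8 gamma delta T cell genes, 7 were not analysed here, so that cell type could not be judged. The part of these cells in the granule gene values was not tested.

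**Figure D4:**
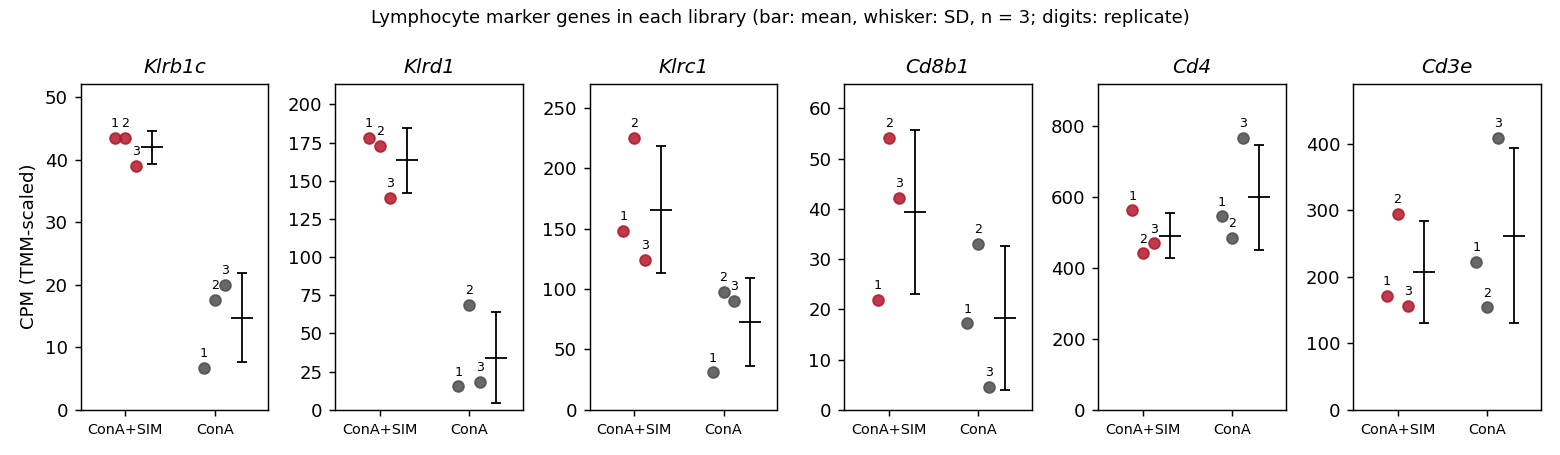
TMM-scaled CPM (y axis) of the NK receptor genes Klrb1c, Klrd1 and Klrc1, the CD8 chain gene Cd8b1 and the T cell genes Cd4 and Cd3e in each ConA+SIM (red) and ConA (grey) library, with replicate numbers and the group mean and SD (n = 3). The 3 receptor genes, among 4 of 13 tested NK genes separated in this direction, are higher in every ConA+SIM library, whereas Cd8b1, Cd4 and Cd3e overlap between the groups. The 1 tested NK gene separated downward is not shown, nor is Cd8a, the other CD8 chain gene, which had a negative log2 fold change.

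The other genes of the granule pathway were read from 7 lists, of which 66 genes were tested. None passed the edgeR test over all genes, where 0.542% did. DESeq2 gave an adjusted p to 54 of them and called 5 higher (Srgn, Vamp7, Cd226, Cd160 and Ccl5), beside 7.42% of its genes, and 1 lower (Tcf7), beside 4.15%. With limma-voom Srgn and Cd226 were called. Among the 66, 8 had an unadjusted p under 0.05 with higher values in ConA+SIM and 1 with lower values, and 5.31% and 3.54% of all tested genes did so in these directions. The median log2 fold change over the 66 was 0.13, beside -0.04 over all tested genes and 0.47 over the 5 granule genes.

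Of the 7 other granzyme genes, Gzmd, Gzme, Gzmg and Gzmn had no count in any library. Gzmf was counted in 1 library and Gzmm in 2, too few to be tested. Gzmc, a neighbour of Gzmb, was at 0, 0 and 1.92 CPM in ConA+SIM and at 0, 16.9 and 5.35 CPM in ConA (log2 fold change -3.52 ± 3.33, adjusted p = 0.997 by edgeR). The granzyme genes of this cluster resemble each other in sequence, and reads shared between them may have been split or dropped before deposit. Of the 10 granzyme genes, Gzma and Gzmb alone had counts in all 6 libraries.

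Srgn, which encodes the serglycin core on which granzymes are stored, was at 2187, 1967 and 2221 CPM in ConA+SIM and at 1256, 1093 and 1410 CPM in ConA. The groups did not overlap, and 9.18% of all tested genes were separated in this direction. The edgeR log2 fold change was 0.76 ± 0.16 (adjusted p = 0.10). Srgn passed with DESeq2 (adjusted p = 4.65e-06) and with limma-voom (adjusted p = 0.00986), which called 1.03% of tested genes as higher. The log2 fold change was 0.66 with length offsets and 0.14 with length and GC offsets. Ctsc, the protease that trims progranzymes into active enzymes, was at 201 ± 89.7 CPM in ConA+SIM and 298 ± 116 CPM in ConA (log2 fold change -0.57 ± 0.40, adjusted p = 0.891). Serpinb6b, a protease inhibitor of the serpin family, was at 334 ± 92.1 CPM in ConA+SIM and 222 ± 60.8 CPM in ConA. For Calr, the calreticulin gene, the log2 fold change was -0.32 ± 0.24. The 12 tested genes of granule contents, activation and inhibitors had 7 higher and 5 lower values, 0 passed in edgeR and the median was 0.16.

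Genes that move and release granules showed 9 higher and 6 lower values among 15 tested, with 0 passing in edgeR and a median of 0.05. Vamp7, a vesicle fusion protein gene, was at 86.2 ± 42.1 CPM in ConA+SIM and 33.1 ± 9.69 CPM in ConA (log2 fold change 1.38 ± 0.49, adjusted p = 0.405 by edgeR). Its libraries were all higher in ConA+SIM, as were 9.18% of tested genes, and DESeq2 called it (log2 fold change 1.35, adjusted p = 0.0441). Vamp8, another vesicle fusion protein gene, was separated the other way, as were 8.57% of tested genes. It was at 5.07, 7.35 and 5.08 CPM in ConA+SIM and 14.6, 18.6 and 25.5 CPM in ConA (log2 fold change -1.75 ± 1.63, adjusted p = 0.997 by edgeR). Unc13d, Rab27a, Stxbp2 and Lyst, whose loss impairs granule release in mice and humans, had log2 fold changes of 0.05, -0.20, 0.04 and -0.33, and Stx11, of the same group, had 0.83 ± 0.62. Rab11a, a recycling endosome GTPase gene, had 0.60 ± 0.42 and the kinesin gene Kif5b had 0.45 ± 0.33.

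Of 17 tested transcription factor genes, 7 had higher and 10 lower values, 0 passed in edgeR and the median was -0.16. Tcf7, a factor of naive and memory T cells that restrains effector genes, was at 687 ± 190 CPM in ConA+SIM and 1120 ± 313 CPM in ConA (log2 fold change -0.70 ± 0.26, adjusted p = 0.435 by edgeR), and DESeq2 called it lower (-0.72, adjusted p = 0.0209). Zeb2, a factor of terminal effector cells, was at 57.4 ± 24.4 CPM in ConA+SIM and 105 ± 33.6 CPM in ConA, and Id2, another effector factor, at 544 ± 79.8 CPM in ConA+SIM and 414 ± 80.1 CPM in ConA. Klf2, a factor of T cell quiescence, had a log2 fold change of -0.35 ± 0.22. Tbx21, the T-box factor T-bet, was at 69.5 CPM in ConA+SIM and 74.5 CPM in ConA (log2 fold change -0.10). Its relative Eomes was at 12.2, 11.7 and 13.1 CPM in ConA+SIM and at 0, 23.1 and 0.0787 CPM in ConA, where its level rests on replicate 2 (0.0393 CPM on average without it). Runx3, a RUNX factor of cytotoxic cells, was at 2.88, 4.38 and 2.30 CPM in ConA+SIM and at 7.17, 5.09 and 23.1 CPM in ConA, where the mean without replicate 3 was 6.13 CPM. Zeb2 and Runx3 had all ConA+SIM libraries below all ConA libraries, as did 8.57% of tested genes. Zfp683 was not analysed here.

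Among 8 tested cytokine receptor genes, 3 had higher and 5 lower values, 0 passed in edgeR and the median was -0.13, against 0.14 with length offsets. Il12rb2, the signalling chain of the interleukin-12 receptor, was at 57.6 ± 21.0 CPM in ConA+SIM and 26.4 ± 7.80 CPM in ConA, without overlap (log2 fold change 1.13 ± 0.56, adjusted p = 0.652 by edgeR). Il2rg, the shared chain of the interleukin-2 and interleukin-15 receptors, had a log2 fold change of -0.38 ± 0.20, the interleukin-21 receptor gene Il21r one of -0.26 ± 0.29 and the interleukin-18 receptor gene Il18rap one of 0.65 ± 0.67. Il2rg, at 341, 416 and 440 CPM in ConA+SIM and 459, 534 and 568 CPM in ConA, and Il21r had all ConA+SIM libraries below all ConA libraries. Of the 8 genes, 1 was thus separated upward and 2 downward, beside 9.18% and 8.57% of all tested genes. Il2rb, the other chain that carries interleukin-2 and interleukin-15 signals, was at 548 CPM in ConA+SIM and 549 CPM in ConA.

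Of the death ligand and effector cytokine genes, Fasl, Tnfsf10 and Ifng could be tested. Fasl, the ligand of the death receptor Fas, was at 75.4 ± 39.2 CPM in ConA+SIM and 41.8 ± 8.27 CPM in ConA (log2 fold change 0.85 ± 0.53, adjusted p = 0.806 by edgeR). Tnfsf10, another death ligand, was at 48.4 ± 4.28 CPM in ConA+SIM and 35.7 ± 28.2 CPM in ConA, and Ifng, the interferon gamma gene, at 258 ± 91.8 CPM in ConA+SIM and 137 ± 64.9 CPM in ConA, with an adjusted p of 0.553 by edgeR. Lta, Ltb and Tnf had no count in their plain rows, and each had 3 numbered copy rows, which held 34 to 63 counts in ConA+SIM and 45 to 72 counts in ConA for Tnf. Those of Ltb held 155, 149 and 1033 counts in ConA+SIM and 116, 78 and 128 counts in ConA, and those of Lta at most 22 counts in any library.

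Surface and chemokine genes of cytotoxic T cells had a median log2 fold change of 0.94, with 8 of 10 tested genes higher, 5 of 10 separated without overlap, all upward, and 0 passing in edgeR. Of all tested genes, 9.18% were separated upward and 5047 of 10509 had a positive value. Cd226, an activating adhesion receptor, was at 324, 356 and 377 CPM in ConA+SIM and at 174, 142 and 153 CPM in ConA. Its log2 fold change was 1.18 ± 0.22 (adjusted p = 0.0639 by edgeR), and it passed with DESeq2 (adjusted p = 3.66e-06) and limma-voom (adjusted p = 0.0295). The log2 fold change was 0.41 with length and GC offsets. Cd160, a receptor of cytotoxic lymphocytes, was at 109 ± 20.2 CPM in ConA+SIM and 47.7 ± 9.78 CPM in ConA, and Klrg1, a marker of terminal effector cells, at 68.8 ± 39.1 CPM in ConA+SIM and 27.5 ± 6.11 CPM in ConA. Ccl5, a chemokine stored and released by cytotoxic cells, was at 285 ± 77.7 CPM in ConA+SIM and 157 ± 47.0 CPM in ConA. DESeq2 also called Cd160 (adjusted p = 0.0182) and Ccl5 (adjusted p = 0.0424), which limma-voom did not. With length offsets the list median was 0.39 and with length and GC offsets 0.31, where the death ligand list, at 0.85 in the edgeR test without offsets, stood at 0.70 and 0.37. The medians of this list and of the death ligand list were positive under all 17 alternatives, whereas those of the other 5 lists took either sign.

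**Figure D5:**
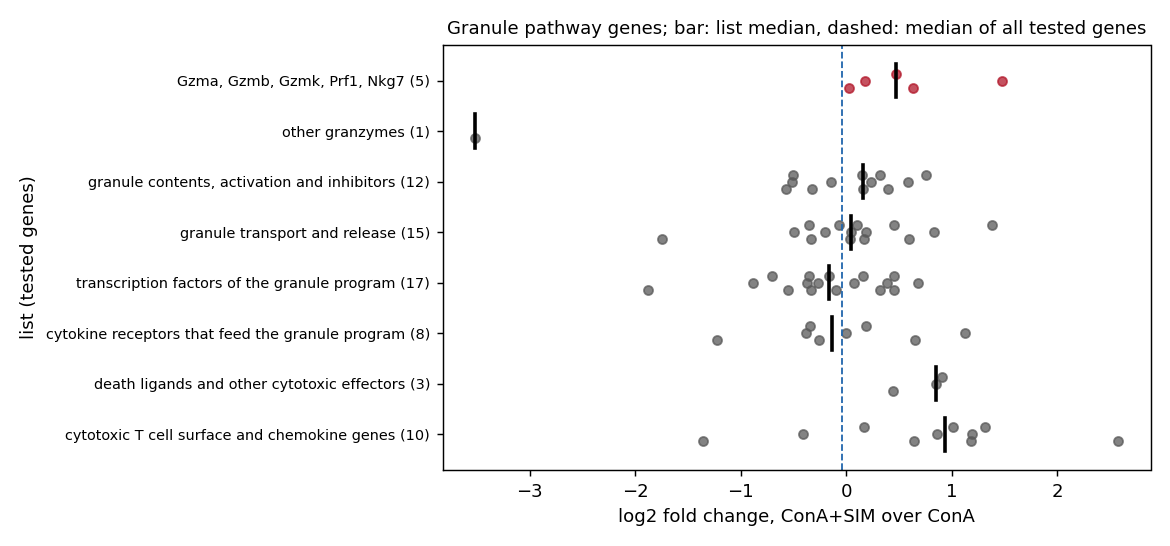
Log2 fold change of ConA+SIM over ConA (x axis) for Gzma, Gzmb, Gzmk, Prf1 and Nkg7 (red) and for the tested genes of the 7 related lists (grey), with the list medians as black bars and the median of all tested genes, -0.04, as a dashed blue line. The medians run from -3.52, from a single gene, to 0.94 in the list of surface and chemokine genes.

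The genes whose levels followed each member most closely were found by Pearson correlation of log2 CPM over the 6 libraries, among 8665 other genes with a mean of at least 10 CPM. For Gzma they were Pimreg (r = 0.996), Uqcr10 (0.995) and Vps29 (0.994), and for Gzmb Inpp5k (0.994), Pus10 (0.988) and Gins4 (0.983). For Nkg7 they were Prmt9 (0.999), Chordc1 (0.991) and Rapgef6 (0.990), for Gzmk Lyrm1 (0.997), B230307C23Rik (0.985) and Tmem167b (0.980), and for Prf1 Tarbp1 (0.998), Atg14 (0.998) and Tfap4 (0.997). With so few libraries many genes reach such values, and the points share library and depth. The number of genes over 0.95 was 104 for Gzma, 77 for Gzmb, 25 for Nkg7, 20 for Gzmk and 89 for Prf1. Prf1 had no count in 2 libraries and Gzmk had none in 1, and these libraries weigh on their correlations.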

How the data were processed

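RNA sequencing libraries of sorted liver CD4+ T cells were compared, 3 from ConA+SIM and 3 from ConA mice. The deposited table held unnormalized whole-number counts by gene symbol, which the authors had made with HISAT2 2.1.0 and the build GRCm38 according to the submitters' processing notes. No source used here names the counting tool, the annotation, the strand setting or the handling of multiply mapped reads. Each column carried the title of 1 sample. The labels do not say that samples came from separate animals, so the p-values cover only sample-to-sample spread, possibly technical, and no batch is named. No 2 libraries of a group agreed within sampling noise (chi-square per degree of freedom 142 to 298). Total counts were 20441213, 17549429 and 20025645 in ConA+SIM replicates 1 to 3 and 21825105, 18360352 and 25031862 in ConA replicates 1 to 3.

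Low genes were removed by filterByExpr (edgeR 4.0.16, R 4.3.3), which left 10509, and TMM scaling preceded a robust quasi-likelihood test on the counts, with Benjamini-Hochberg adjustment and a threshold of 0.05. The procedure was tested on simulated data. Transcript lengths were those of 1 transcript per gene in GENCODE M21 (98.4% of tested genes had one), and promoter windows and coordinates were from RefSeq on GRCm38.p6. Alternatives were RLE scaling, no filter, a minimum of 5 CPM in at least 3 libraries, another count test (DESeq2 1.42.0), limma-voom of limma 3.58.1 with or without weights for sample quality, the replicate number as a block, each library left out, length offsets, length and GC offsets, summed copy rows and ribosomal protein genes left out.

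The granule genes, related lists and marker lists were chosen with earlier results of these data known. Named are the 5 granule genes, up to 4 tested genes of each list with the smallest p, marker genes, and the 3 genes most correlated with each granule gene. Other list members were named after their values were seen.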

Additional observations from a re-analysis of the deposited data

How the results depend on the processing

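Gzma and Nkg7 kept a positive log2 fold change under all 17 alternatives, from 0.70 to 1.90 and from 0.19 to 0.88. Gzma passed the threshold with DESeq2 alone (1.47, which brought the number of called members to 1), and its adjusted p ran from 0.0116 to 1. Leaving out 1 library at a time gave 1.01 to 1.90 for Gzma, 0.43 to 0.88 for Nkg7, -0.29 to 0.27 for Gzmb (below 0 without ConA+SIM replicate 1, ConA+SIM replicate 3 or ConA replicate 2), -0.42 to 1.99 for Gzmk (below 0 without ConA+SIM replicate 1 or ConA replicate 3) and -1.07 to 0.76 for Prf1 (below 0 without ConA+SIM replicate 1 or ConA replicate 2). With transcript length offsets Gzmb turned to -0.24 and Gzmk to -0.13, and with length and GC offsets to -0.48 and -0.27; Il21r then turned to 0.11. The cause was not tested. DESeq2 gave no adjusted p for Gzmk and Prf1. For the 24 list genes named for their small p, 396 of 407 values kept direction and side of the threshold and 10 came to pass. These genes were picked by p in the same data, so this is no independent sign of stability. Other genes named in the text are not in this count.

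Over all genes, 57 were called higher and 0 lower by edgeR, where 558 higher and 372 lower had an unadjusted p under 0.05. DESeq2 called 356 higher and 199 lower, limma-voom 108 and 7, and quality weights 110 and 4. RLE scaling and no filter gave 1 lower call each. Length offsets, length and GC offsets, ribosomal protein genes left out and the replicate block gave 0 higher calls, and leaving out 1 library gave 0 to 3. Whether replicate numbers pair the samples was not settled. Same-numbered libraries had deviations correlated at 0.0111, 0.00878 and 0.0328, and not every library correlated best with its own number. A correlation over all genes with 3 libraries per group cannot exclude pairing. With the replicate block Gzma stood at 1.78 (adjusted p = 0.558). Prf1 was at 0 counts in 2 libraries and Gzmk in 1, the deepest of the 6.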
